A study of Mus musculus with 12 samples.

Results

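The mitochondrial respiratory chain genes that are encoded in the nucleus fell almost as a body in the skin ageing model, and the complex IV subunits made mainly in muscle fell furthest. Members were all genes whose symbols begin with Nduf, Uqcr, Cox and a digit, or Atp5, together with Sdha to Sdhd, their assembly factors Sdhaf2 and Sdhaf4, Cyc1 and Cycs. The deposited tables held 72 such genes among 7902, and all 72 were tested. The reference annotation lists 111 protein-coding genes of these names, and those outside the tables were not analysed here. By structure, 31 members belonged to complex I, 4 to complex II, 9 to complex III with cytochrome c, 9 to complex IV and 10 to complex V, and 9 were assembly factors. Ndufa4, named for complex I, was placed in complex IV, of which it is a subunit.

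Bulk RNA sequencing had been run on 12 mouse skin samples in 3 groups of 4. Ctrl was control skin, Model was skin aged by D-galactose and ultraviolet A and B light, and M+NSPCC1 was skin of the same ageing model given the grape seed extract NSPCC1. The sources used here give no strain, age, sex, body site, dose or timing. Whether the 4 samples of a group were taken from different mice is not stated either, and every p-value here refers to the scatter among samples, part of which may be technical. D-galactose in excess is used in mice to bring on oxidative stress and sugar adducts on proteins, and ultraviolet light damages skin cells directly.

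Oxidative phosphorylation makes ATP in the inner mitochondrial membrane. Complex I takes electrons from NADH and complex II takes them from succinate. Ubiquinone carries them to complex III, cytochrome c carries them on to complex IV, and complex IV passes them to oxygen. Complexes I, III and IV pump protons as they work, and complex V, the ATP synthase, lets the protons back and makes ATP. Most subunits come from nuclear genes, and a few catalytic ones from mitochondrial DNA, which were not analysed here. Complex IV has subunits with tissue isoforms: Cox6a2, Cox7a1 and Cox8b are made mainly in heart and skeletal muscle, the last also in brown fat, and Cox6a1 is the form of subunit 6A in most other tissues. Mouse skin carries a thin sheet of skeletal muscle beneath it, so bulk skin RNA can hold muscle RNA.

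Nuclear respiratory chain genes are known to share promoter elements, and the sequences upstream of 3 complex IV genes show how far the members differ in this respect. RefSeq promoter windows on GRCm38.p6, each reaching from 250 bases before to 50 bases after a gene's start, were present for 60 of the 72 members. The stretches are given with annotated exons trimmed off. Cox6a1 (chr5:115348982-115349208, minus strand), the member that rose, holds the element of nuclear respiratory factor 1 (NRF1), and the capitals mark its overlapping matches on both strands. Cox7a1 (chr7:30183921-30184143, plus strand) and Cox8b (chr7:140900447-140900696, minus strand), 2 of the muscle-type members, hold none of the motifs searched. Cox6a2 had no window.
Cox6a1: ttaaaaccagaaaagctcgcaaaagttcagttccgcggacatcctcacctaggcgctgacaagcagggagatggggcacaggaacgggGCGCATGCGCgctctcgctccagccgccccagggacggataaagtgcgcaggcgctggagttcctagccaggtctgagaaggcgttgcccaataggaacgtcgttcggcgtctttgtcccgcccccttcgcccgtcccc
Cox7a1: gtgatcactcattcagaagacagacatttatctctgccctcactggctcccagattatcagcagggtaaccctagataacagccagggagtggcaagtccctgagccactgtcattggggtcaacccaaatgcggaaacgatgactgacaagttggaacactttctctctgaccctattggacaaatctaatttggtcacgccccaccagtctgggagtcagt
Cox8b: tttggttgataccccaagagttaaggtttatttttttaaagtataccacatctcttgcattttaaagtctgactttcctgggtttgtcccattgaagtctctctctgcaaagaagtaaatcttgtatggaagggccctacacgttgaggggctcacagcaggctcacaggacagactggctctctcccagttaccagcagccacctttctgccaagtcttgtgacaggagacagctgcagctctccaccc

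Each motif was searched on both strands. The NRF1 element GCATGCGC was found in 9 of 60 member windows (15%: Cox6a1, Cycs, Ndufa6, Ndufa8, Ndufa11, Ndufaf5, Sdhb, Uqcr11 and Uqcrc1), against 5.10% of the 6045 tested genes with a window and 2.71% of all 32851 windows. The ETS-type element CCGGAAG was found in 15 members (25%), Cox6a1 among them outside the stretch shown, against 17.4% of tested genes and 8.86% of all windows. The YY1 element AAGATGGC was found in 9 members (15%), against 4.52% and 2.75%. The cyclic AMP element TGACGTCA was found in 5 members (8.33%), against 3.41% and 1.79%. The ERR element TCAAGGTCA was found in Atp5g3 and Sdhd, 3.33% of the members, against 0.281% and 0.423%. The muscle factor element CTATTTATA of MEF2 was found in no member window, against 0.562% and 0.429%. These are matches of letters, and no test was made of them.

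The values below come from estimated counts summed by gene. CPM is the count scaled to library size by TMM factors (the usual CPM unit), and FPKM is the authors' value per transcript length. Summed counts ran from 9717338 to 10952623 per library, and the depth of whole libraries relative to each other from 0.967 to 1.03. A gene passed at an adjusted p under 0.05 (quasi-likelihood test of edgeR, Benjamini-Hochberg over all 7638 genes tested). Of these genes, 90.5% passed in Model against Ctrl, 49.1% as higher and 41.4% as lower. The tables therefore hold mostly genes that differ between these groups, and every count below is a count within that selection. In bulk tissue, fewer cells of a type and less RNA per cell cannot be told apart.

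Several tissue compartments differed between the groups, and their part in the results below was not tested. The marker list of skeletal muscle holds contractile genes and also others, such as Ckm, Mb, Pygm, Casq1 and Ryr1. All 25 of its genes fell in Model, with a median log2 fold change of -3.16. Their share of the summed count ran from 10.6% to 11.1% in the Ctrl libraries, from 0.638% to 2.21% in Model and from 1.55% to 2.49% in M+NSPCC1. Hair shaft genes ran from 0.00176% to 0.0340% in Ctrl, from 5.64% to 8.67% in Model and from 3.95% to 6.91% in M+NSPCC1. All 10 cell division and all 7 melanocyte genes rose, and all 7 tested fibroblast, 6 endothelial and 7 immune genes fell. Of the 8 brown fat markers, 4 were in the tables, Cox8b among them, with a share of 0.0432% to 0.0459% in Ctrl, 0.0197% to 0.0335% in Model and 0.0253% to 0.0540% in M+NSPCC1. In Model, 3 of these 4 fell and 1 rose. Of 10 markers of slow muscle fibres, 5 were in the tables and 4 were tested, of which 2 rose and 2 fell in Model, with log2 fold changes from -3.36 to 2.22. Their share ran from 0.0418% to 0.0514% in Ctrl, from 0.0488% to 0.0551% in Model and from 0.0452% to 0.0539% in M+NSPCC1, and Myh7, the slow myosin heavy chain, was at 0 in every group. The label skin was checked against 12 keratinocyte markers, of which 6 were in the tables at 0.642% to 0.866% of the count in Ctrl, with Krt2 at 0 there. No marker of the skeletal muscle list was at 0 in any group.

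In Model against Ctrl, 71 of the 72 members fell and 1, Cox6a1, rose. The share of all tested genes that passed in either direction was 90.5%, so passing in itself does not set the members apart, and their direction is to be read beside the 41.4% of tested genes that fell. The 71 that fell also had all 4 Model libraries below all 4 Ctrl libraries, as did 39.8% of tested genes. The median log2 fold change of the members was -0.89, a 1.85-fold fall. The members' interquartile range was only 0.29 on this scale. The median of all tested genes was 0.25, so that the members lay -1.14 from it. With DESeq2's size factors those medians were -1.06 and 0.08, and with whole-library depth as scaling -0.72 and 0.43, and the members' direction counts, 71 below 0 and 1 above, were equal under all of them.

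The members held 2.31% ± 0.040 of the summed count in Ctrl (SD, n = 4), 1.46% ± 0.070 in Model and 1.61% ± 0.076 in M+NSPCC1. The 4 Ctrl libraries stood at 2.26%, 2.34%, 2.35% and 2.30%, the Model libraries at 1.52%, 1.43%, 1.52% and 1.38%, and the M+NSPCC1 libraries at 1.71%, 1.60%, 1.53% and 1.61%. All 8 libraries of the aged groups, Model and M+NSPCC1, lay far under Ctrl. The lowest M+NSPCC1 library lay just above the highest Model library, and no test was made of this summed share.

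**Figure D1:**
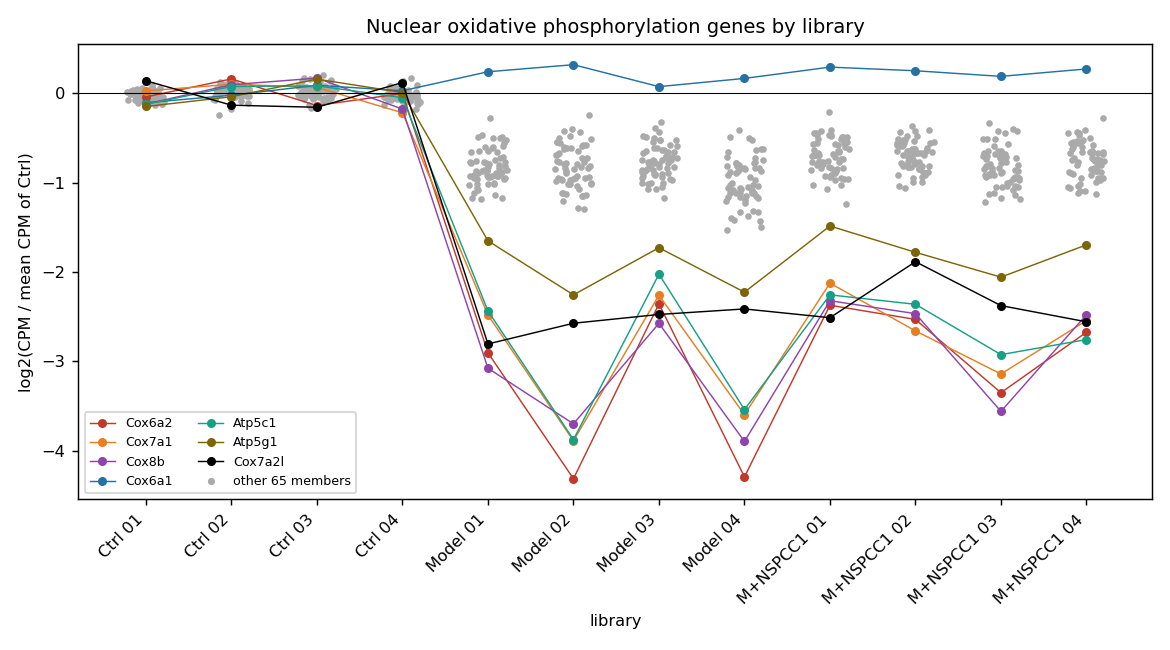
log2 of each member's CPM over its mean CPM in Ctrl (y axis) in each of the 12 libraries (x axis), with 7 members in colour and the others as grey points. The grey points move down together in Model and M+NSPCC1, and Cox6a1 is the member above 0 in all 8 of these libraries. Cox6a2, Cox7a1, Cox8b, Atp5c1 and Cox7a2l lie lowest, and of these all but Cox7a2l vary widely between Model libraries.

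Complex I, where NADH gives up its electrons, fell in all 31 measured subunits, with log2 fold changes from -1.20 (Ndufa5) to -0.46 (Ndufa10) and a median of -0.89. The 7 core subunits, most of which hold the flavin, iron-sulphur clusters or the quinone site, had a median of -0.89 and the 24 accessory subunits one of -0.89. Ndufs1, the largest iron-sulphur protein of the NADH arm, stood at 309, 319, 295 and 288 CPM in Ctrl, at 149, 140, 162 and 148 in Model, and at 173, 159, 159 and 157 in M+NSPCC1. The Model libraries lay close together, and none came near Ctrl. Its log2 fold change in Model was -1.01 ± 0.07 (SE, edgeR adjusted p = 1.65e-07). Ndufs4, an accessory subunit needed for a stable NADH arm, stood at 180, 176, 180 and 181 CPM in Ctrl, at 94.9, 90.8, 89.2 and 78.2 in Model, and at 99.1, 102, 99.1 and 100.1 in M+NSPCC1. The 3 groups did not overlap, with Model lowest. Its log2 fold change in Model was -1.02 ± 0.06 (edgeR adjusted p = 1.25e-07), the smallest p among the members. The weakest evidence in complex I was for Ndufs8, an iron-sulphur protein, at 15.5, 14.6, 13.3 and 16.4 CPM in Ctrl and 7.67, 8.53, 8.24 and 9.69 in Model. Its groups still did not overlap (log2 fold change -0.81 ± 0.18, adjusted p = 0.00113), and its low counts describe 1 transcript only. Ndufv1, the flavoprotein that first meets NADH, fell by less than Ndufs1, from 356 ± 18.8 to 249.4 ± 14.2 CPM (SD, n = 4; log2 fold change -0.51). Ndufb4 and its near copy Ndufb4c may share reads, and both are uncertain for that reason.

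Complex II, the only member group that also works in the tricarboxylic acid cycle, fell in all 4 subunits within a narrow band, from -1.15 (Sdhd) to -0.98 (Sdhb). Sdha, the flavoprotein that oxidises succinate, stood at 794, 927, 889 and 839 CPM in Ctrl, at 428, 390, 453 and 389 in Model and at 423, 432, 421 and 427 in M+NSPCC1. The aged groups overlapped each other and neither overlapped Ctrl. Its log2 fold change in Model was -1.06 ± 0.07 (edgeR adjusted p = 3.11e-07). Sdhb, the iron-sulphur subunit, stood at 363, 420, 384 and 358 CPM in Ctrl, at 199, 201, 189 and 183 in Model and at 199, 218, 208 and 219 in M+NSPCC1. Every aged library lay well under Ctrl, with a log2 fold change in Model of -0.98 ± 0.07 (adjusted p = 2.88e-07). The membrane anchors Sdhc and Sdhd had log2 fold changes of -1.04 and -1.15. The summed share of complex II in Model was 0.530 of that in Ctrl. The same ratio was 0.615 for complex I, 0.601 for complex III, 0.597 for complex IV and 0.694 for complex V. These ratios are descriptions, and the differences between complexes were not tested.

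Complex III with cytochrome c fell in all 9 genes, with a median log2 fold change of -0.83. Cycs, the mobile carrier cytochrome c, had the largest change of these. It stood at 733, 714, 724 and 698 CPM in Ctrl, at 344, 310, 319 and 248 in Model and at 378, 349, 328 and 330 in M+NSPCC1. Model 04 was the lowest library and no aged library reached Ctrl. The log2 fold change in Model was -1.23 ± 0.10 (edgeR adjusted p = 5.88e-07). Uqcrc1, a core protein of the matrix side, stood at 572, 638, 587 and 590 CPM in Ctrl, at 364, 344, 348 and 341 in Model and at 386, 355, 341 and 350 in M+NSPCC1. Its fall was smaller than that of Cycs, at -0.77 ± 0.06 (adjusted p = 9.12e-07), and the aged groups lay on top of each other. Uqcrq, a small accessory subunit, had a log2 fold change of -0.88 (adjusted p = 9.25e-07). Uqcr11 had the largest p of the complex (-0.74 ± 0.12, adjusted p = 0.000176). Uqcrfs1, the Rieske protein, and Cyc1, cytochrome c1, which together pass the electrons on to cytochrome c, fell by 0.95 and 0.83 on the log2 scale.

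Complex IV held the members furthest apart. Cox6a2, the muscle isoform of subunit 6A (chr7:128205435-128206366), stood at 412, 474, 385 and 423 CPM in Ctrl, at 56.6, 21.3, 82.8 and 21.6 in Model and at 81.9, 73.3, 41.5 and 66.4 in M+NSPCC1. Every aged library lay at a small part of the Ctrl level, and Model 02 and Model 04 were lowest. The log2 fold change in Model was -3.22 ± 0.41 (edgeR adjusted p = 2.30e-05). Cox8b, the muscle and brown fat isoform of subunit 8 (chr7:140898942-140900446), stood at 91.9, 107, 112 and 88.4 CPM in Ctrl, at 11.8, 7.69, 16.8 and 6.71 in Model and at 20.0, 18.1, 8.47 and 17.9 in M+NSPCC1. Its log2 fold change in Model was -3.22 ± 0.32 (adjusted p = 3.19e-06). Its lowest Model libraries were again 02 and 04. Cox7a1, the muscle isoform of subunit 7A (chr7:30184171-30186030), stood at 77.0, 81.1, 79.1 and 64.98 CPM in Ctrl, at 13.5, 5.10, 15.8 and 6.24 in Model and at 17.3, 11.96, 8.56 and 13.0 in M+NSPCC1. Its log2 fold change in Model was -2.89 ± 0.34 (adjusted p = 1.21e-05).

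Model 02 and Model 04, lowest for these isoforms, were also lowest for the skeletal muscle markers (0.638% and 0.778% of the count, against 1.77% in Model 01 and 2.21% in Model 03). The summed share of Cox6a2, Cox7a1 and Cox8b was 0.0556% ± 0.00328 in Ctrl (SD, n = 4), 0.00682% ± 0.00410 in Model and 0.00999% ± 0.00284 in M+NSPCC1. Model stood at 0.123 of Ctrl by this share and at 0.124 of Ctrl by that of the 25 skeletal muscle markers, and M+NSPCC1 at 0.180 and 0.182. The part of muscle RNA in the isoform result was not tested. Without the 3 isoforms, the median log2 fold change of the remaining 69 members was -0.89, of which 68 fell and 1 rose. The part of muscle RNA in the values of these 69 was not tested either.

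**Figure D2:**
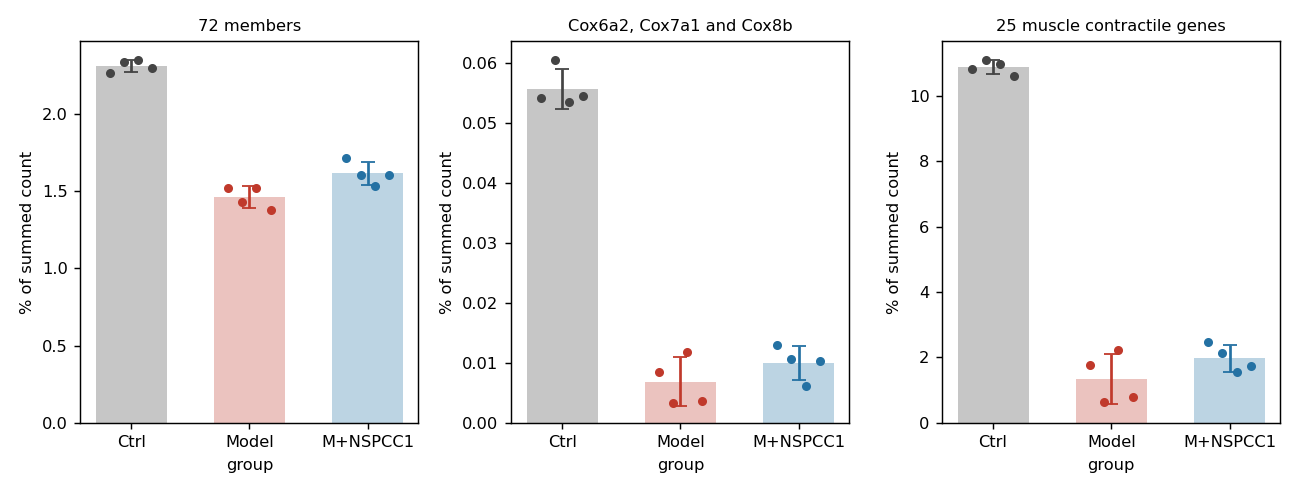
Share of the summed count (y axis, %) held by all 72 members, by the 3 muscle-type complex IV isoforms and by 25 skeletal muscle markers in the 3 groups (points are libraries, bars are means and error bars the SD over 4 libraries). The title of the last panel calls these markers contractile genes, though not all of them are. The members together fell from 2.31% to 1.46% in Model, and both muscle panels fell further, to 0.123 and 0.124 of their Ctrl level.

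The other subunits of complex IV moved like the rest of the chain, with 1 exception. Cox5a, a subunit on the matrix side, stood at 391.95, 383, 393 and 377 CPM in Ctrl, at 211, 191, 192 and 182 in Model and at 217, 222, 199 and 212 in M+NSPCC1. Its log2 fold change in Model was -0.99 ± 0.06 (edgeR adjusted p = 1.53e-07). Ctrl lay apart from both aged groups, which overlapped each other. Ndufa4 fell by 1.12 and Cox5b by 0.71 on the log2 scale (adjusted p = 5.39e-06 and 4.18e-06). Cox4i1, the regulatory subunit that binds adenine nucleotides, stood at 880, 952, 862 and 843 CPM in Ctrl and at 578, 594, 634 and 540 in Model (log2 fold change -0.59 ± 0.08, adjusted p = 2.27e-05). Cox6b1, which helps to join the complex into dimers, had a log2 fold change of -0.64 ± 0.09 (adjusted p = 3.22e-05). Both had smaller log2 fold changes than Cox5a, and neither overlapped between Ctrl and Model.

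Cox6a1, the form of subunit 6A made in most tissues (chr5:115345652-115348958), was the exception. It stood at 217, 230, 248 and 238 CPM in Ctrl, at 275, 291, 245 and 262 in Model and at 286, 278, 266 and 281 in M+NSPCC1. Model 03 lay within the Ctrl range, so the groups overlapped, and every M+NSPCC1 library lay above Ctrl. The log2 fold change in Model was 0.20 ± 0.07 (edgeR adjusted p = 0.0151). The gene did not pass when libraries were scaled by DESeq2's size factors (0.03, adjusted p = 0.649) or in DESeq2's own test (0.03, adjusted p = 0.613), so that a rise of Cox6a1 in CPM depends on the scaling. Its value relative to the other non-muscle subunits of complex IV does not use a scaling between libraries. That ratio ran from 0.0916 to 0.104 in Ctrl, from 0.161 to 0.212 in Model and from 0.179 to 0.195 in M+NSPCC1. It did not overlap between Ctrl and either aged group, and is given as a description. The other subunits in it fell, so the ratio would be higher even with Cox6a1 unchanged.

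The isoforms of subunit 6A changed their order. The forms that take the place of Cox7a1 and Cox8b in other tissues, Cox7a2 and Cox8a, were not analysed here. The ratio of Cox6a2 to Cox6a1, in FPKM with 0.1 added to each value, was 1.39, 1.49, 1.16 and 1.297 in Ctrl, 0.149, 0.0539, 0.248 and 0.0607 in Model and 0.214, 0.192, 0.113 and 0.175 in M+NSPCC1. The muscle isoform was the more abundant in every Ctrl library and the less abundant in every aged one. The difference on the log2 scale was -3.66 in Model against Ctrl, a 12.7-fold fall (p = 0.0286, adjusted p = 0.0429 over 12 ratio tests, exact two-sided permutation of 4 against 4 libraries, the smallest p this design allows). In M+NSPCC1 against Ctrl it was -2.98 (exact permutation p = 0.0286, adjusted p = 0.0429). Relative to the other complex IV subunits, Cox6a2 fell by 2.79, Cox8b by 2.62 and Cox7a1 by 2.37 on the log2 scale in Model against Ctrl, each with the same exact permutation p values. In Ctrl the FPKM of Cox8b (785) was 9th and that of Cox6a2 (650) 12th among the 72 members. In Model they stood at 96.7 and 78.5 FPKM, ranks 45 and 55.

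**Figure D3:**
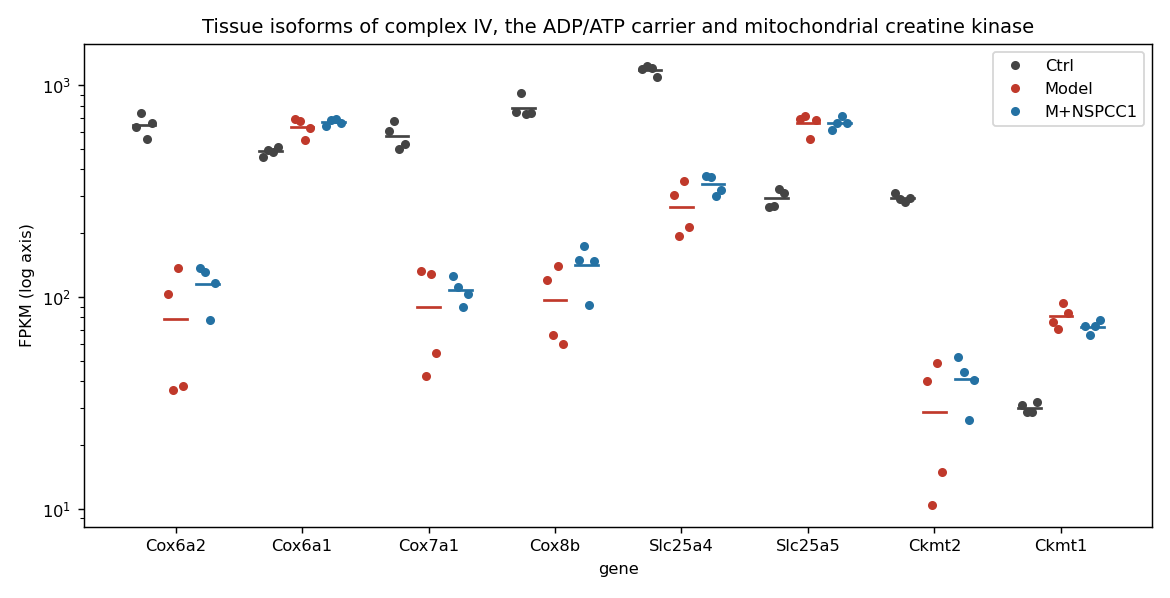
FPKM on a log axis (y axis) of the complex IV isoforms, of the ADP/ATP carriers Slc25a4 and Slc25a5 and of the mitochondrial creatine kinases Ckmt2 and Ckmt1 (x axis), with a point per library and a line at the mean of each group. The muscle forms Cox6a2, Cox7a1, Cox8b, Slc25a4 and Ckmt2 are lower in Model and M+NSPCC1 than in Ctrl, and Cox6a1, Slc25a5 and Ckmt1 are higher.

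Complex V fell in all 10 measured subunits, with a median log2 fold change of -0.71. Subunits of the catalytic head had smaller changes than this. Atp5b, the catalytic beta subunit, stood at 2761, 3043, 2981 and 2864 CPM in Ctrl, at 2077, 2086, 1938 and 2060 in Model and at 2196, 2174, 2204 and 2160 in M+NSPCC1. Its 3 groups did not overlap, with Model lowest, and its log2 fold change in Model was -0.51 ± 0.07 (edgeR adjusted p = 4.20e-05). Atp5d, a subunit of the central stalk, had the smallest fall of the complex, from 514, 532, 539 and 522 CPM in Ctrl to 434, 446, 374 and 397 in Model (-0.35 ± 0.07, adjusted p = 0.000647). Atp5o of the peripheral stalk and Atp5j2 of the membrane part had log2 fold changes of -0.70 and -0.94 (adjusted p = 4.30e-06 and 1.68e-06). Atp5g1, 1 of the genes for the proton-carrying c-ring, stood at 237, 255, 293 and 264 CPM in Ctrl, at 83.4, 54.9, 79.1 and 56.0 in Model and at 93.6, 76.3, 62.9 and 80.9 in M+NSPCC1. It fell by 1.94 on the log2 scale (adjusted p = 9.00e-07), where Atp5g3, another c-ring gene, fell by 0.73.

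Atp5c1, the gamma subunit that turns in the central stalk, stood apart from its complex and was singled out after its values were seen. It stood at 402, 462, 464 and 423 CPM in Ctrl, at 81.0, 29.8, 108 and 37.7 in Model and at 91.7, 85.2, 57.7 and 64.8 in M+NSPCC1, a log2 fold change of -2.77 ± 0.36 in Model (edgeR adjusted p = 2.23e-05). Its order over the Model libraries was that of Cox6a2, with 02 and 04 lowest. The tables hold Atp5c1 as 1 transcript with estimated counts that are not whole, so the value describes that transcript and not all RNA of the gene. The same holds for every member with 1 transcript of counts that are not whole. Among those named here are Atp5g1, Cox7a2l, Ndufs8, Cox5a, Atp5d, Uqcrq, Cyc1, Ndufa13, Ndufb4 and Ndufb4c. Sums that are not whole over several transcripts, as for Ndufs1, Sdhc, Atp5g3 and Atp5j, may likewise miss RNA of the gene. Counts came out whole (within 0.011 per transcript) for 43 members, 59.7%. In these 43 the median log2 fold change was -0.84, with 42 lower and 1 higher, and in the other 29 it was -0.89, with all 29 lower.

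The 9 assembly factors among the members all fell, with a median log2 fold change of -0.91. Cox14 and Cox19, factors of complex IV assembly, had log2 fold changes of -0.86 (edgeR adjusted p = 7.63e-07) and -0.91 (5.89e-06). Cox7a2l, which helps to join complexes into supercomplexes, stood at 10.9, 9.06, 8.91 and 10.8 CPM in Ctrl and at 1.42, 1.67, 1.79 and 1.86 in Model (log2 fold change -2.55 ± 0.25, adjusted p = 2.63e-06). Its Model libraries lay close together, unlike those of Cox6a2. The members had 89 transcripts, of which 88 had enough counts to be tested one by one in place of genes, and of these 87 fell and 1 rose. Over all 10171 transcripts tested, 41.9% fell. For 4 members (Atp5a1, Cox20, Ndufs3 and Uqcrc1) a pair of transcripts held identical values, and with each pair taken once 83 of 84 fell. Transcripts of a gene could differ in size of change: the 2 of Ndufs1 had log2 fold changes of -1.32 and -0.84, and the 2 of Ndufa5 -2.51 and -1.14.

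**Figure D4:**
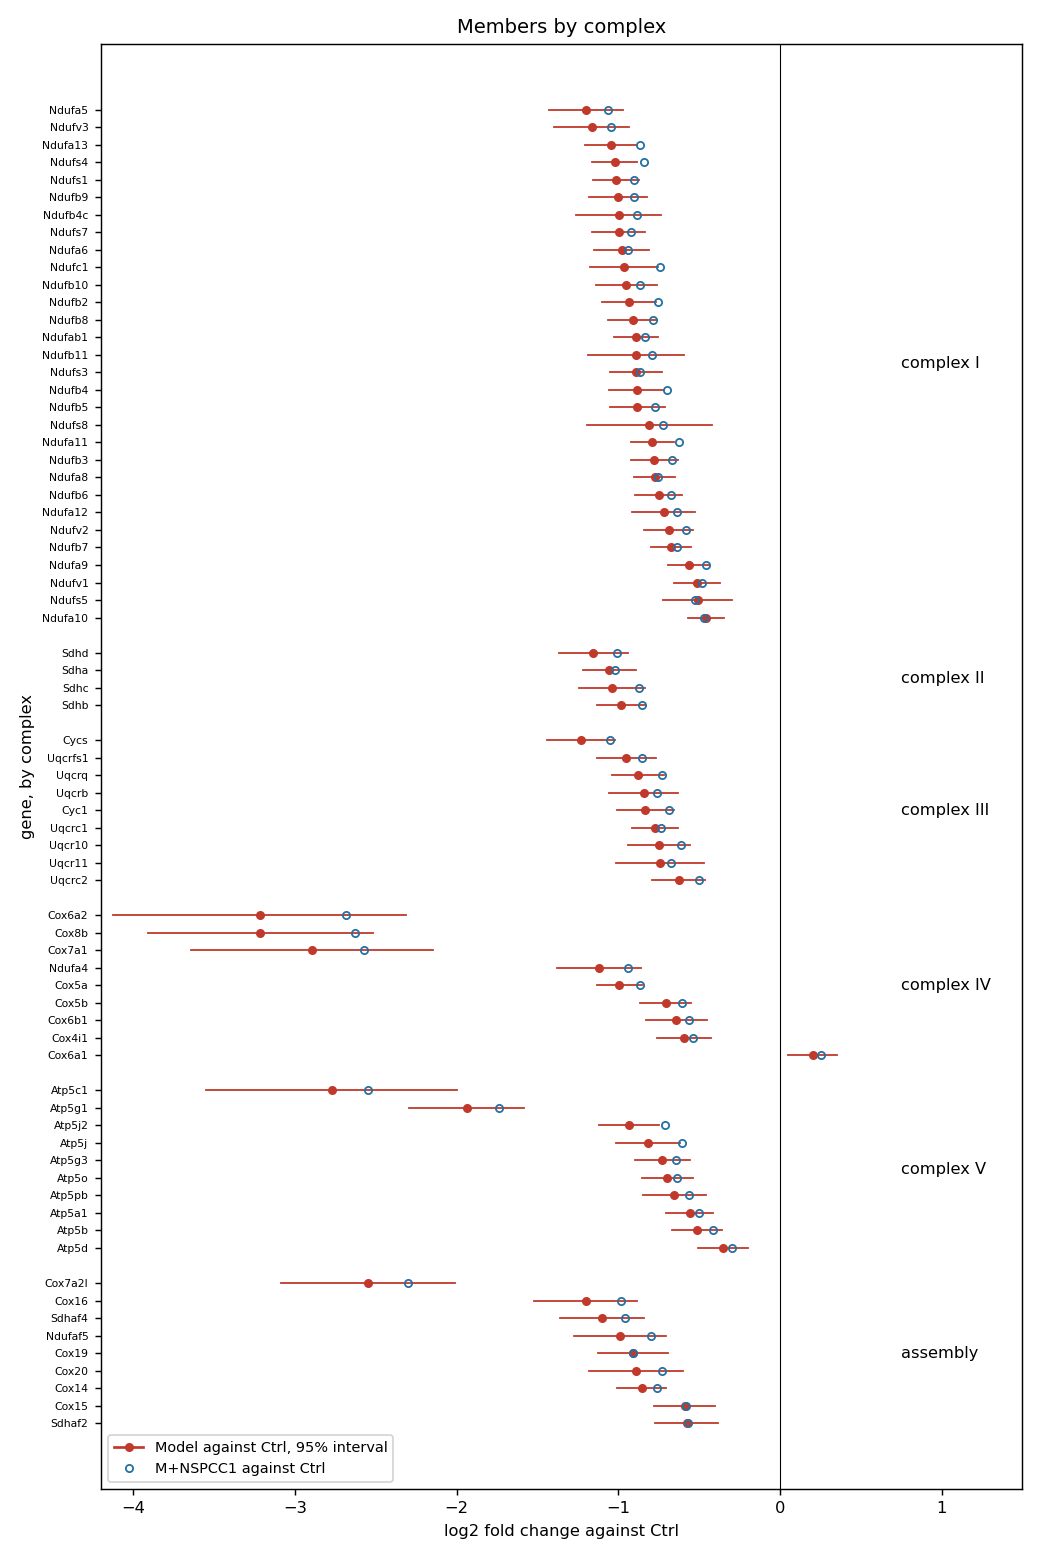
log2 fold change against Ctrl (x axis) of 71 of the 72 members, grouped by complex (y axis), in Model (filled points with 95% intervals) and in M+NSPCC1 (open circles). All members shown but Cox6a1 lie left of 0, and the Model values of complexes I to III lie between -1.23 and -0.46. Cox6a2, Cox8b, Cox7a1, Atp5c1, Cox7a2l and Atp5g1 lie apart. Both comparisons share the Ctrl libraries.

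M+NSPCC1 was compared with Model to ask whether the extract changed these genes in the aged skin. No member passed the test, and percent called was 0 over all 7638 genes (edgeR's quasi-likelihood test, where 8 members and 502 genes had an unadjusted p under 0.05). DESeq2 called 14 genes higher and 59 lower, none of them a member, and limma on log2(FPKM + 1) called none with a filter on low values and 2 higher, no member among them, without it. The smallest adjusted p of a member was 0.644. The log2 fold changes were small and nearly all above 0, in 70 of 72 members against 51.5% of all genes, with a median of 0.11 against 0.01. The exceptions Ndufa10 and Ndufs5, named after their values were seen, both stood at -0.01. The share of all genes above 0 moved with the scaling too. It was 61.0% with whole-library depth and 64.5% in limma on log2(FPKM + 1) with the filter, with 72 members above 0 in both. Groups did not overlap, with M+NSPCC1 higher, in 4 members (Atp5a1, Atp5b, Ndufs4 and Ndufa11), against 1.3% of all genes, and 0 members lay without overlap on the lower side, against 2.89%. The median fell to 0.06 without Model 04, the lowest library for many members, and the count above 0 to 64. Without M+NSPCC1 01 that count was 63. The skeletal muscle markers leaned the same way in this comparison, with 24 of 25 above 0. All 24 tested hair shaft genes lay below 0, with a mean share of 5.88% in M+NSPCC1 against 7.58% in Model. The part of either gene list in the members' values was not tested.

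The count of 8 members moved with single libraries: it was 1 without M+NSPCC1 02, 2 without Model 04, 3 without M+NSPCC1 01, 4 without M+NSPCC1 04, 13 without M+NSPCC1 03 and 17 without Model 03. It was also 4 with only the libraries compared, 17 in DESeq2's test, 19 with whole-library depth and 20 in the limma fits. In the fit to all 12 libraries these 8 were Ndufs4, Ndufa11, Ndufa13, Ndufb2, Ndufb4 and Ndufc1 of complex I and Atp5j and Atp5j2 of complex V. Ndufs4 had a log2 fold change of 0.18 (95% interval 0.04 to 0.32, unadjusted p = 0.0162, edgeR adjusted p = 0.644), and its values by library are given above. Ndufa11, a subunit of the membrane arm, stood at 88.2, 97.6, 93.4 and 94.8 CPM in Model and at 109.6, 108, 99.4 and 103 in M+NSPCC1, with Ctrl at 154 to 169. Every M+NSPCC1 library lay above every Model library, by a small part of the distance to Ctrl (log2 fold change 0.16, adjusted p = 0.670). Atp5j2 stood at 197, 216, 191 and 176 CPM in Model and at 231, 250, 198 and 233 in M+NSPCC1 (0.22, adjusted p = 0.674), with overlap. Atp5j had a value of 0.21 and Ndufc1 of 0.22 (adjusted p = 0.719 and 0.704). The 3 muscle-type isoforms had the largest values but also the widest intervals: Cox8b 0.59 (-0.08 to 1.25, edgeR adjusted p = 0.800), Cox6a2 0.53 (-0.32 to 1.38, adjusted p = 0.916) and Cox7a1 0.32 (-0.40 to 1.05, adjusted p = 0.955). The ratio of Cox6a2 to Cox6a1 differed by 0.69 on the log2 scale (exact two-sided permutation p = 0.286, adjusted p = 0.312), and its groups overlapped.

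The intervals limit how large an effect of the extract these libraries could hide. The 95% interval excluded a change of 2-fold in either direction for 69 of 72 members, all but Cox6a2, Cox7a1 and Cox8b. It excluded a 1.5-fold change for 67, Atp5c1 and Cox7a2l being the further exceptions, and a 1.2-fold change for 28. These intervals are per member and not adjusted for their number. They hold under TMM scaling and carry no uncertainty of that scaling. Like the p-values, they refer to scatter among samples, part of which may be technical.

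In M+NSPCC1 against Ctrl, which uses the same Ctrl libraries again, 71 members fell and Cox6a1 rose, beside 93.2% of all genes that passed in either direction, 43.1% as lower and 50.1% as higher. All 71 lay below Ctrl without overlap, as did 42.5% of genes, and Cox6a1 above it, as did 47.4%. The median log2 fold change was -0.76. Cox6a2 stood at -2.69, Cox8b at -2.63 and Cox7a1 at -2.57 (edgeR adjusted p = 7.90e-05, 1.26e-05 and 2.82e-05). Cox6a1 stood at 0.25 (adjusted p = 0.00457), which was again not called with DESeq2's size factors (0.09, adjusted p = 0.177). Ndufs4, Sdha, Cycs and Atp5b had log2 fold changes of -0.84, -1.02, -1.05 and -0.42 against Ctrl. When the test asked for a fall of more than 1.5-fold, 43 members passed in M+NSPCC1, beside 34.2% of all genes, and 56 in Model, beside 32.9%. The difference between these counts was not itself tested.

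Genes that build, feed or regulate the chain were read from lists of the same pathway. Their counts in Model are to be read beside the 41.4% of all tested genes that fell and the 49.1% that rose. Of 36 assembly factors with other symbols, 15 were tested, and in Model 13 fell and 1 rose (median -0.65). Uqcc1 and Uqcc3, both needed to assemble complex III, had log2 fold changes of -1.16 (edgeR adjusted p = 3.29e-07) and -0.93 (7.83e-06). Of 8 enzymes that bring electrons in by other routes, 4 were tested and all fell. Gpd2, the glycerol phosphate dehydrogenase of the inner membrane, stood at 125, 135, 138 and 129 CPM in Ctrl and at 35.3, 23.6, 44.6 and 23.1 in Model (-2.06, adjusted p = 6.53e-06). Etfb, part of the flavoprotein that takes electrons from fatty acid oxidation, stood at -0.79 (adjusted p = 1.54e-06). Of 15 genes of cristae and cardiolipin, which shape and stabilise the inner membrane, 8 were tested and 7 fell, among them Chchd3 (-0.95) and Apoo (-1.06). None of the genes on these lists passed in M+NSPCC1 against Model.

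Carriers and exchange proteins of the mitochondrial membranes moved in both directions. Of 12 listed, 9 were tested, and 6 fell and 3 rose, beside 41.4% and 49.1% of all tested genes. The genes named next were chosen after their values were seen, except Ucp2 and Ckmt1. Slc25a4, the ADP/ATP carrier of heart and muscle, stood at 2301, 2397, 2395 and 2101 CPM in Ctrl and at 510, 337, 633 and 360 in Model, a log2 fold change of -2.32. Slc25a5, the carrier of most dividing tissues, stood at 498, 502, 622 and 572 CPM in Ctrl and at 1121, 1198, 963 and 1118 in Model, a log2 fold change of 1.004. Neither overlapped between Ctrl and Model, and their directions were opposite. Ckmt2, the mitochondrial creatine kinase of muscle, fell by 3.53 on the log2 scale, while Ckmt1, its form in other tissues, rose by 1.27 (edgeR adjusted p = 5.43e-07). Ucp2, a carrier of the uncoupling protein family, rose from 634 ± 47.5 to 1738 ± 224 CPM (SD, n = 4; log2 fold change 1.45, adjusted p = 2.62e-07). The phosphate carrier Slc25a3, which serves complex V in all tissues, fell by 0.45. The other 3 that fell were the outer membrane channels Vdac1, Vdac2 and Vdac3, with log2 fold changes of -1.12, -0.61 and -3.09.

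Of 25 listed regulators of mitochondrial biogenesis, 12 were tested, 5 fell and 5 rose. Over all tested genes 41.4% fell and 49.1% rose, so this split does not set the regulators apart. The coactivator Ppargc1b and the nuclear receptor Esrra, which it activates, had log2 fold changes of -1.10 (edgeR adjusted p = 4.55e-05) and -0.82 (2.32e-06). Ppargc1a, the related coactivator abundant in muscle and brown fat, named after its values were seen, stood at 23.9, 18.1, 24.3 and 12.4 CPM in Ctrl and at 7.39, 4.26, 9.03 and 7.74 in Model (-1.47, adjusted p = 0.000716). Nrf1, whose product binds the element shown above for Cox6a1, was also named after its values were seen and stood at 3.65, 2.76, 2.36 and 3.35 CPM in Ctrl and at 5.87, 6.77, 5.06 and 6.52 in Model (log2 fold change 0.997, adjusted p = 0.00102). Its levels were low, and its direction was opposite to that of the coactivators. All other members with the NRF1 element in their windows, Cycs and Sdhb among them, fell in Model. A link between Nrf1 and any member was not tested. Tfam, which packs and transcribes mitochondrial DNA, stood at 72.1 ± 1.58 CPM in Ctrl and 76.8 ± 6.10 in Model (SD, n = 4) and did not pass (log2 fold change 0.09, adjusted p = 0.232).

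Per length, the most abundant members in Ctrl were Cox6b1 (1429 FPKM), Ndufa4 (1307) and Atp5j2 (1201), followed by Cox4i1 (1086), Atp5g3 (1059) and Atp5b (972). The lowest was Cox7a2l (6.24 FPKM), of which the tables hold 1 transcript. Genes outside the members whose log2 CPM lay nearest to the members' mean course over the 12 libraries, after centring, were Chchd3 (mean absolute distance 0.0474), Ube2b (0.0483), Ogdh (0.0578), Mgat4b (0.0601) and Rabac1 (0.0601). The members least like that course were Cox6a2 (0.958), Cox8b (0.910), Cox7a1 (0.833), Atp5c1 (0.827) and Cox7a2l (0.618).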

How the data were processed

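Bulk RNA sequencing of 12 mouse skin samples gave, per the labels' protocols, TRIzol RNA and messenger RNA libraries. The authors deposited estimated counts and FPKM values per transcript for each library. Per the submitters' processing notes the build was mm10, and DESeq2 1.34.0, RSEM 1.3.1 and HISAT2 2.2.1 are named without roles. How the 10720 transcripts of the tables were selected is not stated in the sources used here.

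Estimated counts were summed by gene ID and rounded to whole numbers, and 17 members had several transcripts. Samples were grouped by their titles. Coordinates came from the RefSeq annotation of GRCm38.p6, by gene ID. The members, the pathway and marker lists and the rule for named genes were chosen with earlier results of these data known. That rule took the muscle-type isoforms with Cox6a1, Cox4i1, Cox6b1 and Ndufa4, per complex the 3 subunits with the smallest p and the 1 with the largest in Model against Ctrl, the 3 such assembly factors, members with an unadjusted p under 0.05 in M+NSPCC1 against Model, 2 genes per pathway list and the 5 genes nearest in course. Of the genes this rule names, 1 is not reported here. Others are named as examples, chosen after their values were seen.

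The test was edgeR 4.0.16 in R 4.3.3 (quasi-likelihood, TMM factors, filterByExpr), fitted once to all 12 libraries, with no covariate and Benjamini-Hochberg adjustment at 0.05. Ratios used log2(FPKM + 0.1) with exact permutation tests. The alternatives tried were scaling by DESeq2's size factors or by whole-library depth (from the ratio of count to FPKM), DESeq2 1.42.0 as the test, no filter or 1 CPM in 4 libraries, the compared groups alone, the replicate block, a 1.5-fold threshold, limma 3.58.1 on log2(FPKM + 1) or log2(FPKM + 0.1) with a filter at 0.5 FPKM or none, transcripts in place of genes and each library left out. On the log2 FPKM scale changes of low genes are understated. The edgeR fit by gene was tested on simulated counts in which most genes were unchanged. Most genes differ between Ctrl and Model here, so that run cannot show how the scaling behaves in these data.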

Additional observations from a re-analysis of the deposited data

Results flagged for a closer look

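Of 183 groups of 4 libraries examined, 6 held 1 library whose gap to the nearest other was large for the range of its group by Dixon's criterion, where chance flags about 1 group in 20. Ndufs1 stood at 173.3 CPM in M+NSPCC1 01 and at 156.7 to 158.8 in the other libraries of that group. Atp5j stood at 259.8 CPM in Ctrl 03 and at 226.2 to 230.1 in the others. Ppargc1b stood at 20.63 CPM in M+NSPCC1 01, above 14.65 to 15.36, and Apoo at 39.60 in the same library, below 52.28 to 54.89. Ogdh stood at 823.3 CPM in Ctrl 02 and at 736.6 to 749.2 in the other Ctrl libraries. The log2 ratio of Cox8b to the other complex IV subunits was -2.66 in Ctrl 02 and -2.88 to -2.87 in the others.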

How the results depend on the processing

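At gene level, 71 members fell in Model against Ctrl under each alternative run except the 1.5-fold test (56, beside 32.9% of all genes). In M+NSPCC1 against Ctrl 71 fell too, except 70 with whole-library depth and in the limma fits, and no member passed in M+NSPCC1 against Model under any alternative run. With DESeq2's size factors, DESeq2's test or the 1.5-fold threshold, 0 members rose in either comparison with Ctrl, and 43 fell in M+NSPCC1 with that threshold, beside 34.2% of all genes. The cause of the loss of Cox6a1 was not tested. The members' median log2 fold change moved with the scaling: in Model against Ctrl it was -1.06 with DESeq2's size factors and with its test, -0.72 with whole-library depth and -0.71 in all 3 limma fits. In M+NSPCC1 against Ctrl it was -0.92, -0.92, -0.54 and -0.55 in the same order. As a share of summed FPKM the members held 5.47% in Ctrl, 2.96% in Model and 3.35% in M+NSPCC1. With the replicate number as a block, the counts were 71 lower and 1 higher in both comparisons with Ctrl and 0 in M+NSPCC1 against Model, with medians of -0.89, -0.76 and 0.11. Same-numbered libraries correlated at -0.162 to 0.119 and not every library correlated best with its own number. No pairing by number was seen in these values, which cannot exclude a shared batch.

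Leaving out each library gave log2 ratios of Cox6a2 to Cox6a1 of -4.08 to -3.34 in Model against Ctrl and -3.09 to -2.78 in M+NSPCC1 against Ctrl. Relative to the other complex IV subunits, these were -3.14 to -2.49 and -2.25 to -1.98 for Cox6a2, -2.60 to -2.06 and -2.14 to -1.97 for Cox7a1, and -2.83 to -2.46 and -2.23 to -1.95 for Cox8b. With 3 libraries against 4 the smallest exact p is 0.0571, so these tests could not pass. In M+NSPCC1 against Model, values near 0 changed sign. Ndufa10 stood at 0.0027 with DESeq2's size factors, 0.028 with whole-library depth, 0.0030 in DESeq2's test, 0.016 in all 3 limma fits and between -0.024 and 0.014 on leaving out single libraries. Ndufs5 stood at 0.00029, 0.029, 0.00057, 0.012 and between -0.076 and 0.056 in the same order. Of the other values of single genes and complexes, 2198 kept direction and call, 15 kept direction and lost the call (under DESeq2's scaling or the 1.5-fold test) and 73 medians of complexes moved without a change of sign. Depth limits Ndufs8 and Cox7a2l most, whose counts are low.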
